A study of Mus musculus with 4 samples.

Results

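The oncofetal let-7 axis was followed here as 7 genes: Hmga2, Hmga1, Igf2bp1, Igf2bp2, Igf2bp3, Lin28a and Lin28b. Its members are the probe sets that the platform annotation assigns to one of these genes alone, which gave 17 of the 45037 probe sets of the arrays, with control probe sets left out, and 5 of 18193 genes. They were 4 for Hmga2, 4 for Igf2bp1, 6 for Igf2bp3, 2 for Lin28a and 1 for Lin28b; the annotation used here lists none for Hmga1 or Igf2bp2, and those genes are not analysed here. The genes were chosen by their log2 differences between reporter-positive and reporter-negative arrays, above all that of Hmga2, so their values in that comparison are a description, with no test. RNA came from mouse skin squamous cell carcinomas induced with chemicals, from which live cells carrying the epithelial surface protein Epcam and lacking CD45, CD31 and CD140a had been sorted. Such tumour epithelial cells were divided by a green fluorescent reporter of Sox2, a transcription factor of embryonic and stem cells, into a positive group (n = 2 arrays) and a negative control group (n = 2 arrays). All 4 samples are labelled as malignant tumours, and the series text gives 2 carcinomas of 2 mice as their source. The sources used here give neither the reporter allele, the inducing agents, nor the strain, age and sex of the mice, nor whether a replicate number marks a tumour, so any p-value measures only the spread between these arrays.

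As background, let-7 is a family of small RNAs that accumulates as embryonic tissues mature and holds down mRNAs of the embryonic growth programme. Lin28a and Lin28b are RNA-binding proteins that block the maturation of let-7 precursors. Hmga2 encodes a small chromatin protein whose AT-hooks bind the minor groove of DNA and whose mRNA is a classic let-7 target, while the Igf2bp genes encode RNA-binding proteins that stabilise or localise growth-related mRNAs. Several of these genes are largely silent in adult tissues and return in many carcinomas.

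The family is read through its seed, bases 2 to 8 of the mature RNA, and the mature mouse sequences show what a target of this axis has to match. They are from RefSeq (GRCm38.p6), and the seed is in capitals. The forms that share the let-7a seed, whose complement in an mRNA reads CUACCUC, are 10 of 11.
let-7a-5p, chr13:48538239-48538260, minus strand: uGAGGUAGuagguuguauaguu
let-7b-5p, chr15:85707325-85707346, plus strand: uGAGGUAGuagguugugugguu
let-7c-5p, chr15:85706616-85706637, plus strand: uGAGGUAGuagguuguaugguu
let-7d-5p, chr13:48536078-48536099, minus strand: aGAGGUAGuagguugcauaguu
let-7e-5p, chr17:17830366-17830387, plus strand: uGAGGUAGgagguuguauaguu
let-7f-5p, chr13:48537889-48537910, minus strand: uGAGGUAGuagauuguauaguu
let-7g-5p, chr9:106178846-106178867, plus strand: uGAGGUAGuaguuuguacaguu
let-7i-5p, chr10:122985698-122985719, minus strand: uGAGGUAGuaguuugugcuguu
let-7k, chr5:147283257-147283275, minus strand: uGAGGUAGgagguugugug
miR-98-5p, chrX:151913229-151913250, plus strand: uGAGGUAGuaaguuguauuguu
let-7j, chr3:140028281-140028304, plus strand: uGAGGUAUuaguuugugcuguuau
In let-7j the last base of the seed differs, so its complement reads AUACCUC. The array measured mRNAs, and no level of these small RNAs was used here.

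The 4 arrays had medians of 5.49 to 5.60 and lower quartiles of 4.19 to 4.25 on the log2 intensity scale; the deposited table carries no detection calls, so values at or under the lower quartile are read only as dim. With 4 arrays, precision is limited by their number. Sox2 read 3.27 to 3.50 on the positive and 3.14 to 3.43 on the negative arrays, so its transcript does not check the labels. The list of 10 epithelial markers had a mean of 11.09 and 11.26 in positive and of 10.94 and 11.28 in negative arrays. The 12 fibroblast markers, among them Pdgfra (which encodes CD140a), had means of 8.38 and 6.15 in positive and of 10.52 and 9.03 in negative arrays although CD140a-bearing cells had been gated out. Over the 45037 probe sets, limma called 0 at a Benjamini-Hochberg adjusted p under 0.05 (0.0% in either direction, lowest adjusted p = 0.226), while 3349 read higher (7.44%) and 2976 lower (6.61%) in positive cells before adjustment, at p under 0.05.

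Hmga2 was the member that stood apart between the groups. The brightest of its probe sets, 1450781_at, read 10.08 and 11.70 in positive replicates 1 and 2 and 8.01 and 7.98 in negative replicates 1 and 2. Positive arrays averaged 10.89 ± 1.15 (SD, n = 2) and negative arrays 8.0 ± 0.02 (SD, n = 2), a log2 difference of 2.89 ± 0.57 (SE), or 7.43-fold. Both positive arrays lay above both negative ones, and the gap between the nearest arrays was 2.07 log2 units.

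Other probe sets of Hmga2 designed on the same mRNA record likewise had positive replicate 2 highest and positive replicate 1 next, while the order of the negative arrays varied. Probe set 1450780_s_at read 9.73 and 11.25 in positive and 7.24 and 7.17 in negative arrays, a log2 difference of 3.28 ± 0.53 (SE, n = 2 per group). Probe set 1422851_at read 9.81 and 11.49 in positive and 7.43 and 7.65 in negative arrays, a log2 difference of 3.11 ± 0.59 (SE, n = 2 per group). All of these readings, in both groups, lay above the median of their array, so the negative arrays were not dim at these probe sets either. Which cells gave that signal was not tested. Of the 4 probe sets, these 3 were apart by at least 1 log2 unit, beside 0.462% of all probe sets in that direction; the contrast chose the gene, so nothing is read from that share.

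The size of the Hmga2 difference depended on the positive array. Between arrays numbered 1 the log2 difference of 1450781_at was 2.07 (4.19-fold), and between arrays numbered 2 it was 3.72 (13.2-fold). The negative arrays differed from each other by 0.03 log2 units and the positive arrays by 1.63, a distance between positive arrays that 1.68% of all probe sets reached or passed. Over 3 probe sets the difference ran from 2.07 to 2.49 at replicate 1 and from 3.72 to 4.08 at replicate 2. In descending order the levels were positive replicate 2, positive replicate 1, and then the negative arrays, which differed by at most 0.22 log2 units in these 3 probe sets. Without positive replicate 2 the log2 difference of 1450781_at was 2.08, and without positive replicate 1 it was 3.71.

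The last Hmga2 probe set, 1446196_at, was designed on an expressed sequence tag and went its own way. It read 3.60 in positive replicate 1, 6.29 in positive replicate 2, and 3.73 and 3.82 in the negative arrays. Only positive replicate 2 lay above the lower quartile of its array, and the groups overlapped. The log2 difference of 1.17 ± 0.91 (SE, n = 2 per group) rested on that array, since without it the difference was -0.17.

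**Figure D1:**
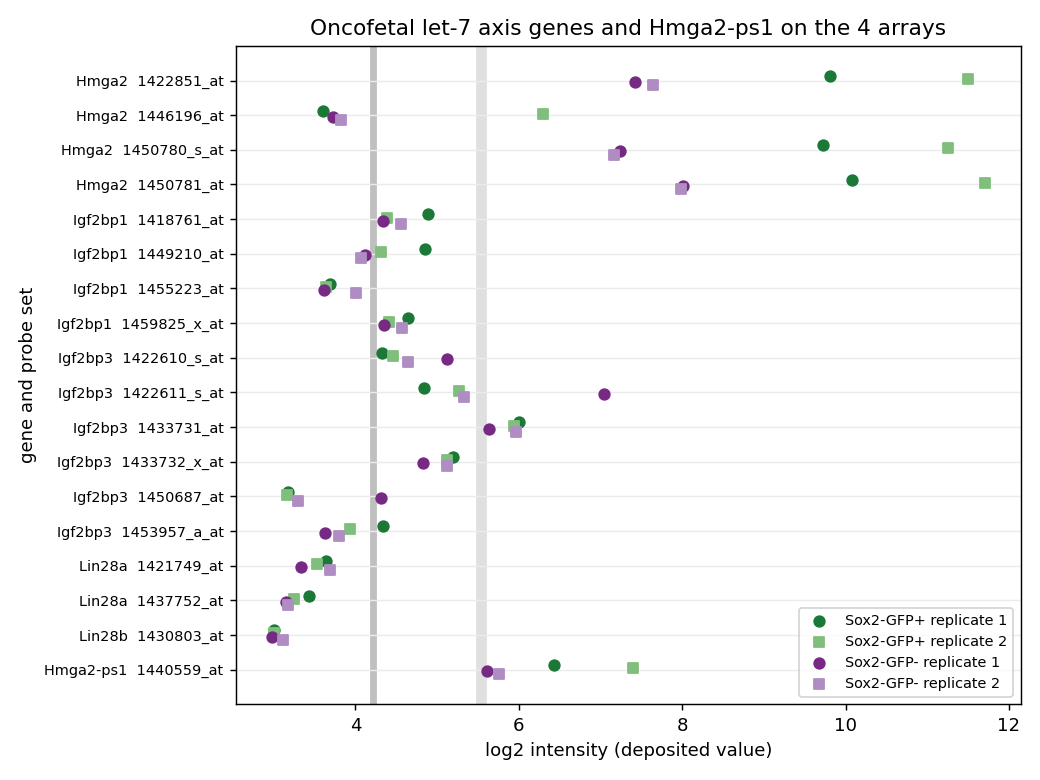
Deposited log2 intensity (x axis) of the 17 member probe sets and of the Hmga2 pseudogene probe set (y axis), 1 point per array; the darker band spans the lower quartiles of the 4 arrays and the lighter band their medians. For 3 Hmga2 probe sets the positive arrays sit between 9.73 and 11.70 and the negative arrays between 7.17 and 8.01, while Lin28a and Lin28b stay under 3.7 on every array.

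A probe set assigned to Hmga2-ps1, which RefSeq lists as a transcribed pseudogene of Hmga2, is not a member but bears on how the signal is read. It read 6.44 and 7.39 in positive and 5.61 and 5.76 in negative arrays, a log2 difference of 1.23 ± 0.36 (SE, n = 2 per group). Positive replicate 2 was the highest array and positive replicate 1 the next, as in the 3 Hmga2 probe sets designed on 1 mRNA record. Signal from a gene and from a near-identical copy cannot be told apart here, so it was not settled whether this probe set saw the pseudogene or Hmga2 itself.

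The promoter of Hmga2 is shown because the cells were sorted on a reporter of a SOX factor. The window runs from 250 bases before to 50 bases after the start site annotated by RefSeq (GRCm38.p6), chr10:120476420-120476719, minus strand, and is written 5′ to 3′ along the gene. Capitals mark ACAAT, a core motif of SOX proteins, which was searched with its complement ATTGT on both strands.
Hmga2 promoter: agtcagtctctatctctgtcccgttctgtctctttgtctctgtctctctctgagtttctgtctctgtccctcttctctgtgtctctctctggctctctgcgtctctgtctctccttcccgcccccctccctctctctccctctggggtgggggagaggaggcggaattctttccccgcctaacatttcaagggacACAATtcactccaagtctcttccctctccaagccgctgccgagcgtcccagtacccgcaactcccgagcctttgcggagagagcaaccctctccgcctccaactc
The window held 1 match, whose first base lies 55 bases before the start. In the same search the window of Lin28a held 2 matches and that of Lin28b 1, while those of Igf2bp2, Igf2bp3 and Hmga1 held 0. Of all 32851 promoter windows, 31.0% held at least 1 match, so a match is common and says nothing of binding.

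The Igf2bp genes gave lower and less uniform readings, and their probe sets disagreed. Igf2bp1, an mRNA-stabilising protein of embryonic tissues, was dim in both groups: its 4 probe sets read between 3.62 and 4.89 on all arrays, under the median of every array. The brightest, 1418761_at, read 4.89 and 4.39 in positive and 4.34 and 4.55 in negative arrays, so the groups overlapped (log2 difference 0.19 ± 0.25 SE, n = 2 per group). Probe set 1449210_at was the exception among the 4, at 4.85 and 4.32 in positive arrays, against 4.12 and 4.07 (log2 difference 0.49 ± 0.25 SE, n = 2 per group). Its separation was 0.20 log2 units, smaller than the 0.54 between the positive arrays. Differences of the other pair, 1455223_at and 1459825_x_at, were -0.15 and 0.07, with overlapping groups.

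Igf2bp3, a related RNA-binding protein known from fetal tissue and carcinomas, split by the sequence its probe sets were designed on. The 3 sets designed on the RefSeq mRNA had both positive arrays below both negative ones. Probe set 1422611_s_at read 4.84 and 5.27 in positive and 7.04 and 5.33 in negative arrays, 1422610_s_at read 4.33 and 4.46 against 5.12 and 4.64, and 1450687_at read 3.17 and 3.16 against 4.31 and 3.30. In each of them negative replicate 1 was the highest array, and negative replicate 2 lay 0.06 to 0.18 log2 units above the nearest positive array. The log2 differences of -1.13, -0.48 and -0.64 shrank to -0.27, -0.25 and -0.13 without negative replicate 1. The second and the third turned positive (0.31 and 0.15) after scaling to the control probe sets for spike-in transcripts. Whether such transcripts had been added to these samples was not checked here, which limits every spike-in scaling below.

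The other 3 probe sets of Igf2bp3 did not share that pattern. The brightest of the gene, 1433731_at, read 6.0 and 5.94 in positive and 5.64 and 5.97 in negative arrays, with a log2 difference of 0.17 ± 0.20 (SE, n = 2 per group) and overlapping groups. Probe set 1433732_x_at overlapped too, at 5.2 and 5.12 against 4.83 and 5.12. On both, negative replicate 1 was the lowest array, the reverse of the sets designed on the RefSeq mRNA. Probe set 1453957_a_at had positive arrays at 4.34 and 3.94 and negative arrays at 3.62 and 3.80. The difference of Igf2bp3 between groups thus had no common direction over its 6 probe sets, from -1.13 to 0.42.

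The let-7 antagonists themselves were dim on all arrays. Lin28a, by 1421749_at, read 3.64 and 3.53 in positive and 3.33 and 3.69 in negative arrays, and by 1437752_at 3.43 and 3.25 against 3.15 and 3.17. Lin28b, by its 1 probe set, read 3.01 and 3.0 in positive and 2.98 and 3.12 in negative arrays. Every one of these 12 readings lay under the lower quartile of its array (4.19 to 4.25), so the arrays gave no level of either gene that could be set apart from dim signal. The differences of -0.04 to 0.18 log2 units therefore bear neither on presence nor on absence of the transcripts.

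**Figure D2:**
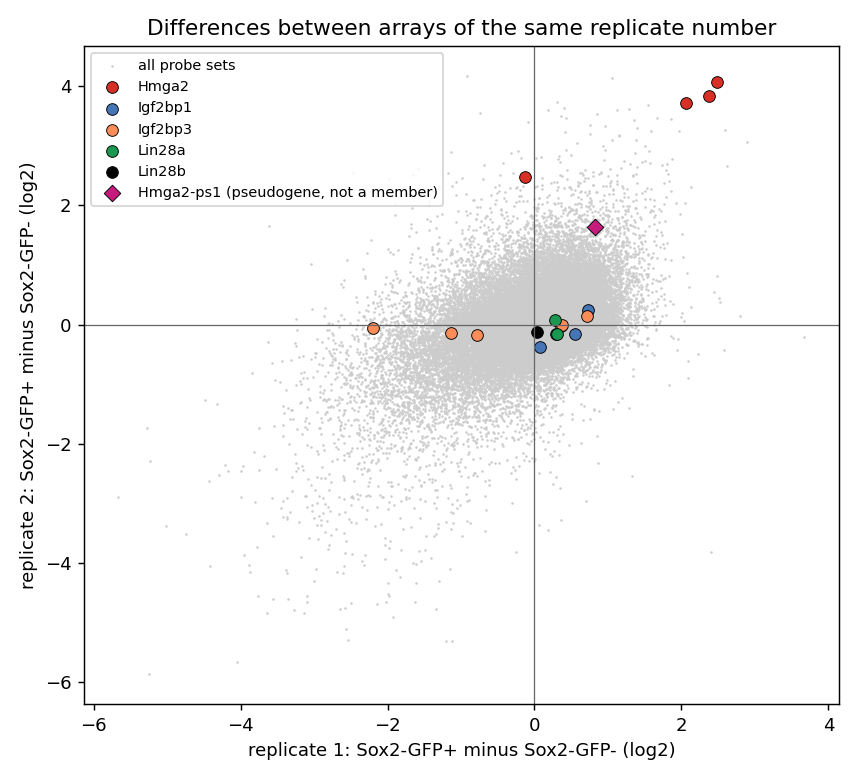
Log2 difference of positive minus negative arrays at replicate number 1 (x axis) and at replicate number 2 (y axis), 1 point per probe set, with all 45037 probe sets in grey. The 3 Hmga2 probe sets designed on 1 mRNA record lie at 2.07 to 2.49 and 3.72 to 4.08, the expressed-tag probe set at -0.13 and 2.47, and those Igf2bp3 sets with a negative difference at replicate 1 lie near 0 at replicate 2; spike-in scaling would move every group difference up by 0.79.

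Counted over all members, 6 of the 17 probe sets had both positive arrays above both negative ones, 3 had them below and 8 overlapped, beside 29.7% above and 18.4% below among all probe sets. Leaving out Hmga2, the counts were 3 above, 3 below and 7 overlapping of 13, and 11 of the 13 varied by less than 1 log2 unit over the 4 arrays. Those 2 that varied more are the Igf2bp3 sets 1422611_s_at and 1450687_at, in which negative replicate 1 was high. None was apart by 1 log2 unit below, beside 1.37% of all probe sets. A median level set as a filter on dim values would have kept 5 of the 17: 3 of Hmga2 and 2 of Igf2bp3.

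The genes whose profile over the 4 arrays lay nearest to that of Hmga2 were found by the Euclidean distance between log2 deviations from each gene's own mean, over 18192 genes. They were Csf3 (distance 0.37), Tll1 (0.68), Prl8a9 (0.77), Gdnf (0.92) and Wfdc2 (0.92), where the median distance of all genes was 3.04. Csf3, the granulocyte colony-stimulating factor, read 8.54 and 9.83 in positive and 6.57 and 6.58 in negative arrays. Tll1, a secreted metalloprotease, read 6.79 and 8.51 against 5.28 and 5.52. Gdnf, a neurotrophic factor, read 6.40 and 9.06 against 5.28 and 5.47, with the positive arrays further apart than in Hmga2. In each of the 5 genes positive replicate 2 was the highest array. Nearness over 4 arrays, chosen among so many genes, is a description only.

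Other genes of the axis were taken from 6 lists, each gene at its brightest probe set, and 89 distinct genes were measured. None passed limma's adjusted p of 0.05 over all probe sets (lowest adjusted p = 0.226), and before adjustment 16 read higher and 8 lower at p under 0.05, beside 9.81% and 5.05% of all 18193 genes. Groups did not overlap for 34 genes with positive above and for 20 with positive below, beside 35.5% and 14.0% of all 18193 genes. The median log2 difference of all genes was 0.14, and spike-in scaling moved it to 0.93, with 15429 genes above and 353 below. The balance of every list shifted with it.

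Reported let-7 targets other than the members went both ways. Of 28 measured, 10 lay above, 7 below and 11 overlapped, beside 35.5% above and 14.0% below among all genes. The median log2 difference was 0.03 against 0.14 for all genes, and 0 passed (limma adjusted p = 0.226 to 0.998). With spike-in scaling 21 lay above and 2 below (median 0.82), beside 15429 and 353 of all 18193 genes (median 0.93). Ccnd1, the cyclin that drives entry into the cell cycle, read 11.30 and 11.77 in positive and 10.45 and 10.13 in negative arrays (adjusted p = 0.247), and Cdc34, a ubiquitin-conjugating enzyme, 10.62 and 10.43 against 9.50 and 9.52 (adjusted p = 0.233). Il6, an inflammatory cytokine, lay on the other side at 4.88 and 5.43 against 8.14 and 7.60, a log2 difference of -2.72 ± 0.31 (SE, n = 2 per group, limma adjusted p = 0.226). Plagl1, a zinc-finger factor of the fetal imprinted network, read 10.21 and 8.68 against 11.22 and 11.72, and all 3 of its probe sets had the positive arrays lower.

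Genes that process, modify or use microRNAs were evenly split on the deposited scale. Of 24 measured, 7 lay above, 7 below and 10 overlapped, beside 35.5% above and 14.0% below among all genes. The median was -0.03 against 0.14 for all genes, and 0 passed (limma adjusted p = 0.288 to 0.999). With spike-in scaling 18 lay above and 0 below, beside 15429 and 353 of all 18193 genes. The list median then turned positive (0.76, against 0.93 for all genes). Khsrp, an RNA-binding protein that aids let-7 maturation, read 10.37 and 10.42 in positive and 9.84 and 9.86 in negative arrays. Dis3l2, the exonuclease that degrades uridylated let-7 precursors, read 7.30 and 7.51 against 6.70 and 6.99, though its other 2 probe sets overlapped. Ago3 and Ago4, small-RNA effector proteins, had log2 differences of -0.64 and -0.78 at their brightest probe sets, which turn positive with spike-in scaling. Groups overlapped for the other Ago4 probe set and for 3 of the other 4 of Ago3. Tut4 and Tut7, the enzymes that uridylate let-7 precursors bound by Lin28a, overlapped between groups, with differences of -0.002 and -0.07.

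Genes linked to Hmga2 in earlier work lay mostly above on the deposited scale, some of them narrowly. Of 10 measured, 8 lay above, 1 below and 1 overlapped, beside 35.5% above and 14.0% below among all genes. The median was 0.51 against 0.14 for all genes, and 0 passed (limma adjusted p = 0.226 to 0.852). The smallest gap among the 8 was 0.03 log2 units, and after quantile normalization 6 lay above and 1 below (median 0.47). Cdkn2a, the locus of the p16 and p19 growth inhibitors that Hmga2 holds down in mouse neural stem cells, read 5.99 and 6.26 in positive and 4.75 and 4.58 in negative arrays, a log2 difference of 1.46 ± 0.20 (SE, n = 2 per group, limma adjusted p = 0.226). Its neighbour Cdkn2b, another cell cycle inhibitor, read 9.39 and 9.66 against 8.77 and 8.74. E2f1, a factor of cell cycle entry, read 7.67 and 7.50 against 6.67 and 6.59. The cyclin Ccna2 stood at 10.18 and 9.88 in positive and at 9.45 and 9.52 in negative arrays. For E2f1 only the brightest of 3 probe sets showed separated groups.

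Among genes of insulin-like growth factor signalling, 5 of 15 lay above, 1 below and 9 overlapped, beside 35.5% above and 14.0% below among all genes. The median was 0.10 against 0.14 for all genes, and 0 passed (limma adjusted p = 0.233 to 0.960). Igfbp5, a binding protein of these growth factors, read 5.51 and 4.42 in positive and 9.15 and 7.75 in negative arrays, an 11.2-fold distance (log2 difference -3.48 ± 0.61 SE, n = 2 per group, limma adjusted p = 0.233). Igf2r, the receptor that clears Igf2, read 9.0 and 9.14 against 8.29 and 7.95. Igf2, the ligand after which the Igf2bp proteins are named, overlapped at 6.05 and 6.82 against 6.54 and 5.28.

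Of 11 fetal and imprinted genes, among them Plagl1 and Igf2 from the lists above, 3 lay above, 4 below and 4 overlapped. Among all genes 35.5% lay above and 14.0% below. The list median was -0.30 against 0.14 for all genes, and 0 passed (limma adjusted p = 0.252 to 0.856). With spike-in scaling the list median turned positive (0.49, against 0.93 for all genes). Peg3, an imprinted zinc-finger gene, had positive arrays at 4.24 and 4.29 and negative arrays at 7.29 and 5.55, and Meg3, an imprinted non-coding RNA, 7.86 and 6.65 against 11.28 and 8.52. Both were highest in negative replicate 1, as were the fibroblast markers. Afp, the best-known oncofetal protein, read 5.24 and 5.49 against 4.45 and 4.60, and all 5 of its probe sets had the positive arrays higher. Every reading of these sets lay under the median of its array. The set with the smallest log2 difference (0.21) read 3.41 to 3.67, under the lower quartile of every array. The shared direction of the Afp sets is therefore a description of low signal only.

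For mRNAs reported as bound by Igf2bp proteins, 3 of 10 lay above, 3 below and 4 overlapped, beside 35.5% above and 14.0% below among all genes. The median was 0.16 against 0.14 for all genes, with 0 past the threshold (limma adjusted p = 0.349 to 0.818). With spike-in scaling 8 lay above and 0 below, beside 15429 and 353 of all 18193 genes. Ptgs2, the inducible cyclooxygenase, read 12.13 and 12.60 in positive and 11.68 and 11.78 in negative arrays. Hk2, a glycolytic hexokinase, and Ctnnb1, beta-catenin, had log2 differences of -0.51 and -0.16, which turn positive with spike-in scaling. Myc and Cd44 differed by -0.23, also positive with that scaling, and 0.21.

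**Figure D3:**
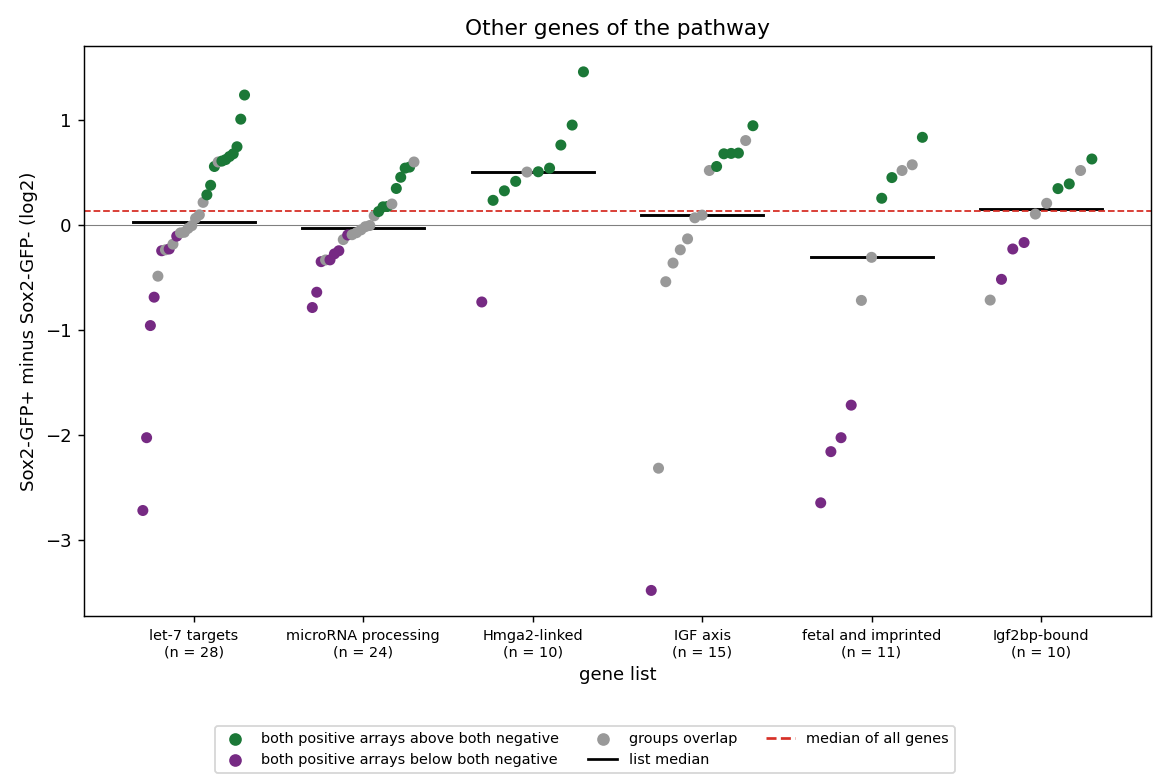
Log2 difference of positive minus negative arrays (y axis) for each measured gene of 6 lists (x axis), 1 point per gene at its brightest probe set, coloured by whether the groups overlap; black bars are list medians and the dashed line the median of all genes. The Hmga2-linked list has a median of 0.51 against 0.14 for all genes, and the lowest points are Igfbp5 at -3.48 and Il6 at -2.72; spike-in scaling would add 0.79 to each value.

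Markers of other cells differed between arrays to unequal degrees. All 12 fibroblast markers had both positive arrays below both negative ones (median log2 difference -2.61), of which 2 still did after spike-in scaling (median -1.82), and the sum of their linear intensities was 17173 and 2145 in positive and 48670 and 24296 in negative arrays. Of 10 endothelial markers 3 lay below and 7 overlapped, and of 10 immune markers 1 lay above, 2 below and 7 overlapped. Among all genes 35.5% lay above and 14.0% below on the deposited scale. For the endothelial markers the sums were 799 and 436 against 1943 and 629, and for the immune markers 832 and 519 against 2145 and 721, both highest in negative replicate 1 and with negative replicate 2 under positive replicate 1. Of the 6 melanocyte markers 4 lay below and 2 overlapped, with sums of 321 and 225 against 585 and 458. With spike-in scaling the melanocyte list had 1 above and 1 below (median -0.18, from -0.98), the endothelial list 1 above and 0 below (median -0.30, from -1.09), and the immune list 5 above and 0 below, its median turning from -0.61 to 0.18. That scaling put 15429 of all 18193 genes above and 353 below (median 0.93, from 0.14). Adgre1 was the 1 gene of these 5 lists at or under the lower quartile on all arrays. In every list but the epithelial one, other genes were so on some arrays. In positive replicate 2, whose median was 5.51, the endothelial, immune and melanocyte means were 5.07, 5.23 and 4.77, so the differences of these lists include dim values. In bulk RNA fewer cells of a type and less RNA per cell cannot be told apart.

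Set beside the members, negative replicate 1, the array with the highest fibroblast, endothelial and immune sums, was the highest for the 3 Igf2bp3 probe sets with a negative difference, and positive replicate 2, with the lowest of those sums, was the highest for Hmga2. Hmga2 read nearly alike in the negative arrays (8.01 and 7.98), whose fibroblast sums were 48670 and 24296. The part of these cells in the Hmga2 and Igf2bp3 results was not tested. As a sign of RNA quality, the 3′ minus 5′ difference of the Gapdh control probe sets was 0.35 and 0.48 in positive and 0.77 and 0.64 in negative arrays, and that of Actb ran from -0.21 to -0.10 over all arrays. Its part in the results was not tested either.

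**Figure D4:**
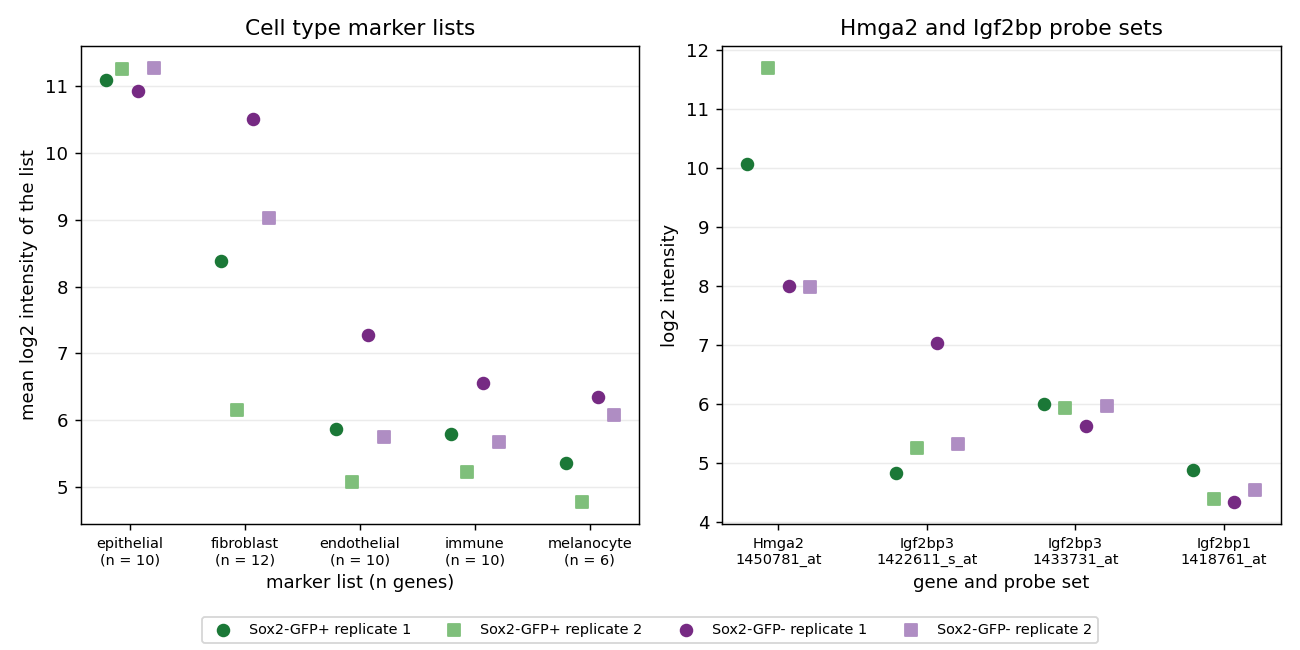
Left, the mean log2 intensity of 5 marker lists (y axis) by list (x axis), and right, the log2 intensity of 4 Hmga2 and Igf2bp probe sets, 1 point per array. Fibroblast means run from 6.15 in positive replicate 2 to 10.52 in negative replicate 1, Igf2bp3 1422611_s_at is high in negative replicate 1 alone (7.04), and Hmga2 is highest in positive replicate 2 (11.70).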

How the data were processed

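The authors deposited 1 table of log2 values, 45101 probe sets on 4 Affymetrix 3′ expression arrays of the mouse, with RNA amplified and labelled by in vitro transcription per the labels' protocols. The log2 scale was read from the values. The submitters' processing notes name R 2.14.0; how background, normalization and probe set summary were handled is not given in the sources used here. Groups and replicate numbers came from the titles.

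Without 64 control probe sets, 45037 were fitted with limma 3.58.1 in R 4.3.3 (lmFit, eBayes, group only, 2 residual and 2.56 prior degrees of freedom), with Benjamini-Hochberg adjustment over all of them. A run on simulated data was used only to check that set differences were recovered on average, not how calls behave at the spread of these data. An exact two-sided permutation test of 2 against 2 arrays cannot go below p = 0.333. Symbols came from the platform annotation: 34958 probe sets had 1, 932 several and 9211 none given; 34741 of those named matched RefSeq (GRCm38.p6) by gene number. Named were all members, any list gene past the threshold and otherwise up to 4 genes per list with the largest distance from the closest positive to the closest negative array, the 5 nearest profiles to Hmga2 and the Actb and Gapdh control probe sets; Tut4, Tut7, Igf2, Myc and Cd44 were named after their values were seen. Members, lists and tests were chosen with earlier results of these data known. Alternatives were a replicate block, other scalings, filters, probe set rules and priors, and leaving out each array.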

Additional observations from a re-analysis of the deposited data

How the results depend on the processing

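The log2 difference of 2.89 at the brightest Hmga2 probe set stayed positive under every alternative run, but nothing is read from that sign. The contrast chose the gene, and its nearest arrays lay 2.07 log2 units apart, so leaving out 1 array could not turn the sign. A replicate block or another prior leaves the difference as it is. This difference ran from 2.08 to 3.71 when 1 array was left out and was 2.61 as the mean of the gene's probe sets. After quantile normalization it was 2.83, and it was 3.69 when arrays were scaled on 24 control probe sets for spiked-in poly-A transcripts. Spike-in scaling took these probe sets by name, and whether the transcripts had been added was not checked. That scaling moved the median of all probe sets from 0.07 to 0.86 and was the setting that changed calls: limma then called 27026 probe sets, and 48 of the 89 pathway genes, against 0 in the deposited scale, and the counts apart by 1 log2 unit went from 208 above and 617 below to 5256 and 120. Those counts were 121 and 248 with 1 probe set per gene, 91 and 189 with probe sets averaged per gene, where fewer features were counted, and ran from 449 to 1095 above and from 1164 to 2145 below when 1 array was left out, where a group of 1 array separates more easily and is assumed to vary like the other. No other alternative called a probe set. Igf2bp3 went from 0.17 at its brightest probe set to -0.25 as the mean of its 6. Arrays of the same replicate number share only a number in the labels. With the replicate number as a replicate block 0 probe sets were called (lowest adjusted p = 0.0974), and the differences between replicates in positive and in negative arrays correlated with r = 0.18 across 45037 probe sets, which are not independent.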
